A study of Mus musculus with 8 samples.

Results

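Cultures of mouse embryonic stem (ES) cells that had been driven toward neural fate for 5 days were compared between lines in which the NDIME/Mef2c pair was perturbed and lines in which it was not. The perturbed side held 1 library labelled LincNDIME_KO (KO below), from cells with a knockout of the long noncoding RNA gene NDIME, and 1 library labelled shMef2c, from cells with a short hairpin RNA against Mef2c. The control side held 1 library labelled WT and 1 labelled shCtrl, from a control hairpin line. The labels give the strain of all 4 as C57BL/6. The study's design note names them as 46C cells, an ES line that carries a green fluorescent protein reporter in the Sox1 gene. The cells were re-aggregated in low-adhesion dishes in medium with 8% knockout serum replacement and are labelled as ES-derived neural progenitor cells. The sources used here do not say whether a line was 1 clone or whether the libraries came from separate cultures. These are 4 of the 8 libraries of the series, and the other 4 are the same lines at day 0, as ES cells on feeder cells with leukaemia inhibitory factor. Of 21069 gene features in the day 5 files, 12975 had a mean of 1 FPKM (fragments per kilobase of gene, scaled to library size) or more over the 4 libraries and were compared. A gene was called shared when both perturbed values lay above, or both below, both control values, and its difference is the mean log2(FPKM + 1) of KO and shMef2c minus that of WT and shCtrl. Each line has 1 library, so no difference has a replicate check and no p-value is given, and the log2(FPKM + 1) scale understates differences of low genes.

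Mef2c is a transcription factor of the MADS-box family that is known for its roles in heart, muscle and neuronal development, and mutations of the human gene cause a neurodevelopmental disorder with autistic features. When ES cells leave self-renewal, a network of naive pluripotency factors built around Oct4, Nanog and Esrrb is shut down, and in neural cultures SoxB1 factors, Notch signalling and proneural factors come on in sequence. Retinoic acid, made and degraded by dedicated enzymes, sets the Hox code of the hindbrain.

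Mef2c itself did not pass the filter on mean level. It had 0.10 and 0.12 FPKM in KO and shMef2c, against 0.45 and 0.50 FPKM in WT and shCtrl, a difference of -0.41 on the log2(FPKM + 1) scale. These values rest on 17 estimated reads in KO (95% exact Poisson interval 9.90 to 27.2) and 20 in shMef2c (12.2 to 30.9), against 77 in WT (60.8 to 96.2) and 82 in shCtrl (65.2 to 101.8), intervals that cover counting error only. Mef2c was therefore lower in both perturbed lines than in both controls, at a low level in all 4. No feature of the files is named NDIME, so the knockout could not be checked on its own gene. At day 0 Mef2c had 0.24 and 0.37 RPKM in KO and shMef2c, against 0.23 and 0.16 RPKM in WT and shCtrl, on 26 and 44 estimated reads against 29 and 20, so the library labelled shMef2c held the highest Mef2c level of the day 0 table, against its label. Depth at day 5 was 26493161 and 26616030 estimated reads in KO and shMef2c, against 26834802 and 25996204 in WT and shCtrl.

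Summed neural progenitor markers were higher in the control libraries than in the perturbed ones, and summed naive pluripotency genes were lower. The summed level of 28 neural progenitor markers was 490 and 362 FPKM in KO and shMef2c, against 1132 and 1173 FPKM in WT and shCtrl. The 26 naive pluripotency genes summed to 2667 and 3272 FPKM in KO and shMef2c, against 1042 and 709 FPKM in WT and shCtrl. Dppa5a alone made up 1356 and 1642 FPKM of this in KO and shMef2c, against 454 and 295 FPKM in WT and shCtrl. None of the 28 neural markers was at 0 in any library, and Sox2 was high in all 4. In bulk RNA, fewer cells of a type and less RNA per cell cannot be told apart, and this holds for every difference given here.

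Of the 12975 genes, 3413 (26.3%) were higher in both perturbed libraries and 4012 (30.9%) were lower in both, so that 57.2% met the rule without any demand on size. The balance depended on scaling, with 3813 higher and 3672 lower on TMM-scaled values and 4090 higher and 3406 lower with each library centred on its median. A difference of 2-fold or more was held by 420 of the higher genes (3.24% of those compared) and 363 of the lower genes (2.8%). Those whose closest perturbed and control values also stood 2-fold or more apart numbered 174 (1.34%) and 142 (1.09%). Either fold was taken on FPKM + 1. The median difference of all genes was -0.03. The 4 libraries were not alike within a side: the median absolute log2 difference between KO and shMef2c was 0.23, against 0.15 between WT and shCtrl. For 318 of the 420 higher and 236 of the 363 lower genes, the gap between the sides was wider than the difference within either side. The count of shared higher genes was 5213 without shMef2c, and the counts of separated genes were 378 and 385 without KO, 398 and 349 without shMef2c, and 333 and 284 without WT (higher and lower). Large shared differences were more frequent among low genes: 5.21% of genes with a mean of 1 to 5 FPKM were 2-fold higher and 3.64% 2-fold lower, against 1.1% and 1.1% of genes at 100 FPKM or more. The last gene inside the 2-fold limit on the higher side was Fgf5 at 1.0004 and the first outside was Trim25 at 0.997, and on the lower side these were Boc at -1.0011 and L1cam at -0.9998.

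**Figure D1:**
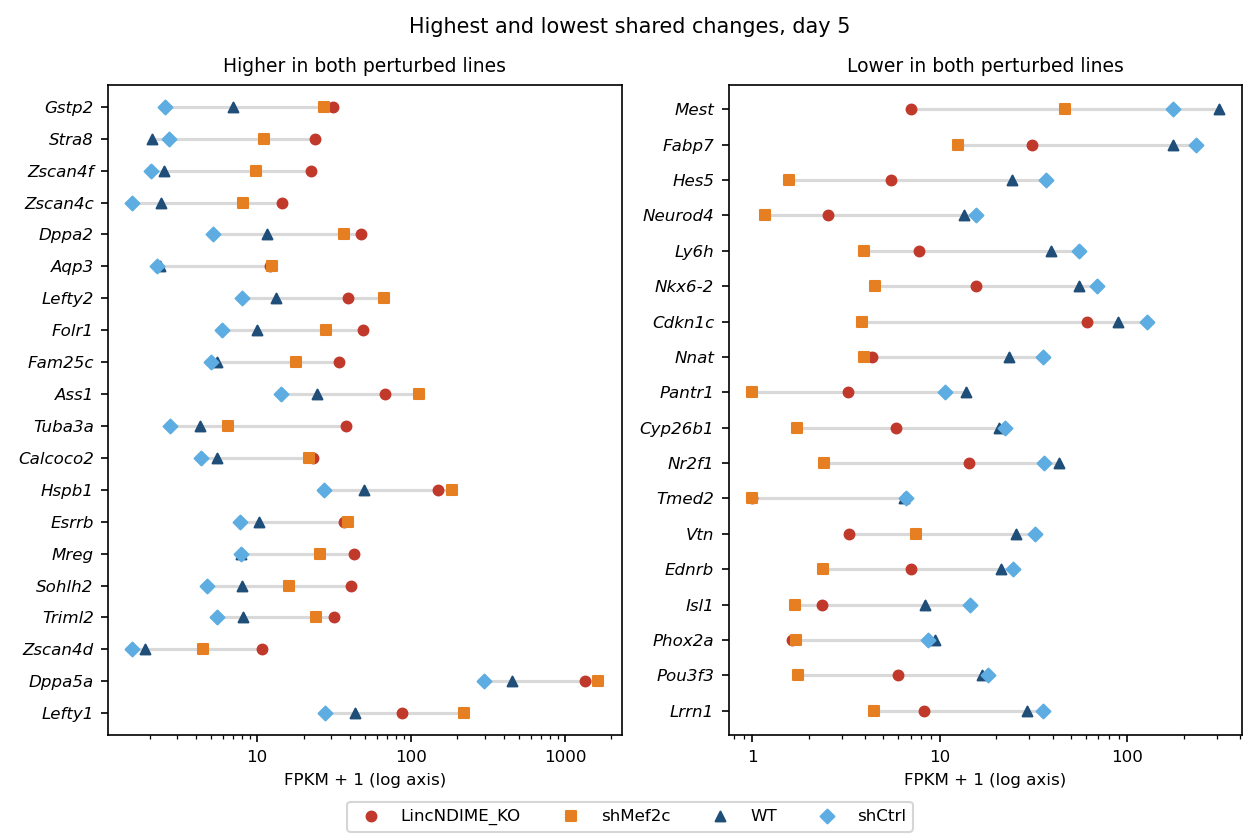
FPKM + 1 (log axis) of the named genes with the highest and the lowest shared differences, 1 dot per library (KO, shMef2c, WT, shCtrl). In each line of the plot both perturbed dots lie on 1 side of both control dots, from Gstp2 (2.79) at the top of the higher genes to Mest (-3.69) among the lower ones.

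The highest differences belonged to genes of several kinds. Gstp2, a glutathione S-transferase with a near-identical neighbour in Gstp1 that makes its level uncertain, had 30.04 and 26.2 FPKM in KO and shMef2c, against 5.99 and 1.52 FPKM in WT and shCtrl (difference 2.79). Stra8, a gatekeeper of meiotic entry in germ cells, had 22.7 FPKM in KO and 10.2 FPKM in shMef2c, against 1.07 FPKM in WT and 1.69 FPKM in shCtrl (2.78). In both cases KO was the highest library and the controls lay far below. Aqp3, a water and glycerol channel, had 11.1 and 11.4 FPKM in KO and shMef2c, against 1.33 and 1.23 FPKM in WT and shCtrl, with almost no spread within either side (2.43). Dppa2, a pluripotency-associated chromatin factor, had 46.4 and 35.6 FPKM in KO and shMef2c, compared with 10.5 and 4.16 FPKM in WT and shCtrl (2.43). Folr1, a folate receptor, had 47.8 and 27.1 FPKM in KO and shMef2c, against 9.01 and 4.91 FPKM in WT and shCtrl. Ass1, which makes argininosuccinate in arginine synthesis, had 66.6 and 112 FPKM in KO and shMef2c, against 23.5 and 13.2 FPKM in WT and shCtrl. Hspb1, a small heat-shock protein, had 149.5 FPKM in KO and 184 FPKM in shMef2c, against 48.8 FPKM in WT and 26.3 FPKM in shCtrl. Folr1 was highest in KO, and Ass1 and Hspb1 in shMef2c.

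The lowest differences were mostly those of neural and imprinted genes. Mest, an imprinted gene expressed from the paternal copy, had 5.99 and 45.6 FPKM in KO and shMef2c, against 306 and 175 FPKM in WT and shCtrl, and KO lay far below shMef2c (-3.69; -2.32 without KO). Fabp7, the brain lipid-binding protein of radial glia, had 29.9 and 11.6 FPKM in KO and shMef2c, compared with 174 and 233 FPKM in WT and shCtrl (-3.36). Hes5, the Notch effector of neural progenitors, had 4.47 and 0.57 FPKM in KO and shMef2c, against 23.3 and 36.04 FPKM in WT and shCtrl (-3.36). In Fabp7 and Hes5 shMef2c was the lowest library, and the sides were far apart. Ly6h, a brain member of the Ly6 family, had 6.72 and 2.97 FPKM in KO and shMef2c, against 38.3 and 54.3 FPKM in WT and shCtrl. Vtn, the matrix protein vitronectin, had 2.29 FPKM in KO and 6.5 FPKM in shMef2c, against 24.7 FPKM in WT and 31.3 FPKM in shCtrl. Tmed2, a cargo receptor between the endoplasmic reticulum and the Golgi, is a case of its own: it was absent from the KO and shMef2c tables and so taken as 0, against 5.42 FPKM in WT and 5.58 FPKM in shCtrl, on 284 estimated reads each. At day 0 all 4 libraries held Tmed2 between 82.6 and 88.3 RPKM, and how the reads were assigned at day 5 was not tested.

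Promoter sequences are shown for the genes that lead each direction and for those whose promoter holds a motif tied to a pathway described below. They run from 250 bases before to 50 after the gene start in RefSeq on build GRCm38.p6, which is not the build of the files, and 258 of the 420 higher and 233 of the 363 lower genes matched an entry. Capitals mark a match, on either strand, to the word named here for that promoter only. Matches to other words are left in lower case, and no word was marked in Gstp2 and Mest. Gstp2 (chr19:4042172-4042471, minus strand) and Mest (chr6:30733256-30733555, plus strand) hold no MEF2 box and open the 2 lists. Klf2, a naive pluripotency factor (chr8:72318812-72319111, plus strand), and Hist3h2ba, a histone H2B gene (chr11:58948661-58948960, plus strand), each hold a MEF2 box. Their shared differences were 1.71 and -1.46. They were picked by size of difference from only part of the matched genes, so another promoter with a box may have a larger difference. Hes5 (chr4:154960673-154960972, plus strand) holds GTGGGAA, the core bound by the Notch cofactor RBPJ, and Hmgcs1, a cholesterol synthesis gene (chr13:119690101-119690400, plus strand), holds the sterol element TCACNCCAC. The last pair was chosen after its values were seen. The promoter of Nrarp, another Notch target, held no GTGGGAA, and that of Idi1, another cholesterol gene, held no TCACNCCAC.
Gstp2: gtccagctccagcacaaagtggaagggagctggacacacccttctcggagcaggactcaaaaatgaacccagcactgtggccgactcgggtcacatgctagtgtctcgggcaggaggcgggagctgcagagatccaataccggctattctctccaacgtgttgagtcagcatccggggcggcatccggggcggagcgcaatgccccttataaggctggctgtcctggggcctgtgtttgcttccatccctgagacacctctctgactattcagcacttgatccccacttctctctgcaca
Mest: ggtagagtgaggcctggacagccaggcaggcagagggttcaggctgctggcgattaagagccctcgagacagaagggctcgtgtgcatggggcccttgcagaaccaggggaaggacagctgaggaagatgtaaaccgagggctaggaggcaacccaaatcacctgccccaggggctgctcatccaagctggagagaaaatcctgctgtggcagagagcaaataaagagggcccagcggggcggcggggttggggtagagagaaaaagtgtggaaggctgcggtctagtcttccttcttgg
Klf2: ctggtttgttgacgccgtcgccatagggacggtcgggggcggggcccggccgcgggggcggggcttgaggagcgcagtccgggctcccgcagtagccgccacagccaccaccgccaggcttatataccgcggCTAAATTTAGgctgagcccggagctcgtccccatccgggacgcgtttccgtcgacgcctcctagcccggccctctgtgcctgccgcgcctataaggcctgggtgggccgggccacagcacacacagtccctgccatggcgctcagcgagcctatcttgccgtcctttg
Hist3h2ba: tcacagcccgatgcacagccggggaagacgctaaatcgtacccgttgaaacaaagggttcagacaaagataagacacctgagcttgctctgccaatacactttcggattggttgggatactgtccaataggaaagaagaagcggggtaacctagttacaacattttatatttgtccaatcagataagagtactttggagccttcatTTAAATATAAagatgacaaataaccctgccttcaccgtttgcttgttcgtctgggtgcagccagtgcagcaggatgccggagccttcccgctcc
Hes5: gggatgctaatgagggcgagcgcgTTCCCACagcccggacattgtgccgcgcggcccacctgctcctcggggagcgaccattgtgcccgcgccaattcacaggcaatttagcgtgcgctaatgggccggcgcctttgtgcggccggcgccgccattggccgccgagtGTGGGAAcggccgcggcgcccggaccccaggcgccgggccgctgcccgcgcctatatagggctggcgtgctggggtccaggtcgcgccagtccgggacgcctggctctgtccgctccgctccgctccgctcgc
Hmgcs1: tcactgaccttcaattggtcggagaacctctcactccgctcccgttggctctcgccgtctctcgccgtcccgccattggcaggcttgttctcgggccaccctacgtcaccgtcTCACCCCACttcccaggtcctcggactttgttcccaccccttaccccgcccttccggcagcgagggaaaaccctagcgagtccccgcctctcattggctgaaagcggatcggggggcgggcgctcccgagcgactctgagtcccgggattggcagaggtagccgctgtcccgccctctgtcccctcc

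The MEF2 box of Klf2 starts 118 bases before the gene start and that of Hist3h2ba 44 bases before it. A MEF2 box was found in 1.94% of the matched higher promoters (5 of them) and 0.858% of the lower ones (2), against 1.34% of the 9766 compared genes with an entry and 3.26% of all 27025 promoters in the table. GTGGGAA was found in 6.59% of higher and 5.58% of lower promoters, against 6.0% of those compared. Among promoters of Notch genes that were lower in both lines, 2 of 12 held it. TCACNCCAC was in 1.55% and 1.29%, against 0.993%, and in 1 of 10 promoters of lower cholesterol genes. The E-box CAGCTG was in 18.2% and 18.5%, against 14.3%. The octamer ATGCAAAT was in 3.1% of higher and 5.15% of lower promoters, against 1.51%, and the homeobox core TAATTA in 8.14% and 3.0%, against 2.37%. TCAAGGTCA, the word bound by Esrrb, was in 0 promoters of either direction, against 0.246% of those compared. A MEF2 box can contain TAATTA, no other word searched contains another, and a match is a description of letters only. The 2 directions differed in base composition: the observed-to-expected CpG ratio had a median of 0.437 in higher promoters and 0.687 in lower ones, against 0.779 in all compared.

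All 26 naive pluripotency genes were higher in both perturbed libraries, 24 of them by 2-fold or more and 17 with the sides fully 2-fold apart, and their median difference was 1.64, against -0.03 over all genes. Nanog, a core factor of self-renewal, had 117 and 148 FPKM in KO and shMef2c, against 46.97 and 36.7 FPKM in WT and shCtrl (1.64). Esrrb, an orphan nuclear receptor that can stand in for Nanog, had 35.7 and 38.1 FPKM in KO and shMef2c, compared with 9.22 and 6.68 FPKM in WT and shCtrl (2.10). Both had shMef2c highest and shCtrl lowest. Zfp42 (Rex1), a common reporter of the naive state, had 106 and 129 FPKM in KO and shMef2c, against 36.9 and 24.1 FPKM in WT and shCtrl (1.94). Dppa5a, an RNA-binding protein of ES cells and among the most abundant messages of the list, had 1356 and 1642 FPKM in KO and shMef2c, against 454 and 295 FPKM in WT and shCtrl (2.02). Tbx3, a T-box factor of naive cells, had 5.5 FPKM in KO and 5.59 FPKM in shMef2c, against 0.86 FPKM in WT and 0.85 FPKM in shCtrl, nearly equal within each side. Klf2 had 37.7 and 59.6 FPKM in KO and shMef2c, against 14.9 and 12.7 FPKM in WT and shCtrl. Klf4, a related Krüppel-like factor, had 3.95 and 4.59 FPKM in KO and shMef2c, compared with 1.85 and 1.02 FPKM in WT and shCtrl. Pou5f1, which encodes Oct4 and is also on in later epiblast cells, had 284 and 433 FPKM in KO and shMef2c, against 182 and 131 FPKM in WT and shCtrl (1.18). Sall4, which likewise stays on after the naive state, had 33.1 and 42.3 FPKM in KO and shMef2c, against 22.8 and 19.4 FPKM in WT and shCtrl, and was under 2-fold (0.80). The medians were 1.35 for KO minus WT and 1.84 for shMef2c minus shCtrl, and 7 of the 26 genes were higher in KO than in shMef2c.

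Genes of the formative epiblast, the state between naive and primed pluripotency, were less uniform: 11 of 16 were higher in both perturbed libraries, 2 were lower, and 4 were 2-fold higher (median 0.58). Among all compared genes 26.3% were higher and 30.9% lower. Dnmt3l, a cofactor of the de novo DNA methyltransferases, had 60.2 FPKM in KO and 90.7 FPKM in shMef2c, against 31.5 FPKM in WT and 12.5 FPKM in shCtrl (1.84; 1.20 without shCtrl). Etv5, an ETS factor downstream of FGF, had 61.1 and 66.2 FPKM in KO and shMef2c, against 29.98 and 18.1 FPKM in WT and shCtrl (1.41). Fgf5, the classic message of the post-implantation epiblast, had 15.4 and 20.2 FPKM in KO and shMef2c, compared with 8.72 and 7.95 FPKM in WT and shCtrl (1.00). These were higher in both perturbed lines, whereas Otx2, an early organiser of the formative network and later of the anterior brain, overlapped with 37.6 and 24.4 FPKM in KO and shMef2c, against 18.2 and 34.97 FPKM in WT and shCtrl. Sall2 was on the lower side with 15.9 and 12.6 FPKM in KO and shMef2c, against 28.9 and 23.9 FPKM in WT and shCtrl (-0.84).

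The Nodal pathway, a branch of TGF-beta signalling that acts in the epiblast and in mesendoderm induction, had 9 of 13 genes higher and 1 lower, with 6 at 2-fold or more and a median of 0.99. The ligand Nodal had 17.7 FPKM in KO and 32.5 FPKM in shMef2c, against 10.2 FPKM in WT and 5.38 FPKM in shCtrl (1.57). Its co-receptor Tdgf1 (Cripto) had 40.3 and 69.7 FPKM in KO and shMef2c, against 22.7 and 11.4 FPKM in WT and shCtrl, and the related ligand Gdf3 had 24.1 and 39.9 FPKM in KO and shMef2c, compared with 12.7 and 6.23 FPKM in WT and shCtrl. The secreted inhibitors, which are themselves Nodal targets, stood furthest apart: Lefty1 had 86.6 and 221 FPKM in KO and shMef2c, against 42.2 and 26.6 FPKM in WT and shCtrl (2.01). Lefty2 had 37.9 and 65.5 FPKM in KO and shMef2c, against 12.3 and 6.99 FPKM in WT and shCtrl (2.31). In all 5 genes shMef2c was the highest library and shCtrl the lowest. Smad7, an intracellular inhibitor, had 5.96 FPKM in KO and 7.61 FPKM in shMef2c, against 2.8 FPKM in WT and 2.48 FPKM in shCtrl. The receptor gene Acvr2b was the lower one with 14.3 and 14.1 FPKM in KO and shMef2c, against 17.6 and 18.7 FPKM in WT and shCtrl. Cer1, another inhibitor, was nearly off in KO alone with 0.14 and 30.3 FPKM in KO and shMef2c, compared with 12.6 and 13.3 FPKM in WT and shCtrl. Of the FGF and ERK feedback list, 8 of 18 genes were higher and 2 lower (median 0.52, with 0.83 without KO and 0.19 without shMef2c). For this list and the Nodal list, the shares over all compared genes were 26.3% higher and 30.9% lower. Fgf4, the ligand that ES cells make themselves, had 16 and 14.7 FPKM in KO and shMef2c, against 5.87 and 5.59 FPKM in WT and shCtrl (1.28). Spry4, an ERK feedback inhibitor, had 4.29 and 5.91 FPKM in KO and shMef2c, against 2.48 and 1.45 FPKM in WT and shCtrl, whereas the receptor Fgfr3 had 3.54 FPKM in KO and 0.55 FPKM in shMef2c, against 10.4 FPKM in WT and 9.83 FPKM in shCtrl (-2.06; -1.29 without shMef2c).

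Of 28 neural progenitor genes, 22 were lower in both perturbed libraries, 17 of them by 2-fold or more, and 2 were higher, with a median of -1.25. All compared genes were lower in 30.9% of cases and higher in 26.3%. Besides Fabp7 and Hes5, the homeobox factors of ventral progenitors stood out. Nkx6-2 had 14.7 and 3.54 FPKM in KO and shMef2c, against 54.2 and 68 FPKM in WT and shCtrl (-2.87). Nkx6-1 had 5.4 and 5.12 FPKM in KO and shMef2c, compared with 27.6 and 34.6 FPKM in WT and shCtrl (-2.35). Dbx1, a factor of the intermediate neural tube, had 5.97 and 0.3 FPKM in KO and shMef2c, against 13.3 and 15.7 FPKM in WT and shCtrl, and its difference was -3.57 without KO and -1.15 without shMef2c. The intermediate filaments of neuroepithelium were lower by similar amounts in both lines: nestin (Nes) had 11.8 and 10.03 FPKM in KO and shMef2c, against 45.7 and 40.2 FPKM in WT and shCtrl (-1.89), and vimentin (Vim) had 75.6 FPKM in KO and 81.1 FPKM in shMef2c, against 290.4 FPKM in WT and 267 FPKM in shCtrl (-1.82). Pax6, a paired-box factor of dorsal and forebrain progenitors, had 8.15 and 0.21 FPKM in KO and shMef2c, against 11.99 and 12.3 FPKM in WT and shCtrl, so that KO lay close under the controls and shMef2c was almost off (-1.98; -3.44 without KO and -0.52 without shMef2c). Sox1, the locus of the reporter and an early neural SoxB1 factor, had 12.1 and 2.45 FPKM in KO and shMef2c, compared with 15.8 and 13.6 FPKM in WT and shCtrl (-1.22; -2.18 without KO and -0.26 without shMef2c), with the same order. The third SoxB1 gene, Sox3, had 20.8 and 10.1 FPKM in KO and shMef2c, against 37.03 and 36.4 FPKM in WT and shCtrl (-1.28; -0.79 without shMef2c). Sox2, which is shared by pluripotent and neural cells, was slightly higher with 104 and 118 FPKM in KO and shMef2c, against 98.4 and 103 FPKM in WT and shCtrl, with a gap of 0.01 between the sides and a difference of 0.14 that was 0.05 without shMef2c and 0.23 without KO. Zic5 was the other higher member with 5.31 FPKM in KO and 7.04 FPKM in shMef2c, against 3.83 FPKM in WT and 3.68 FPKM in shCtrl, and Olig2 overlapped. In 22 of 28 genes KO was above shMef2c, the pair medians were -0.81 for KO minus WT and -1.66 for shMef2c minus shCtrl, and the list median was -0.79 without shMef2c.

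**Figure D2:**
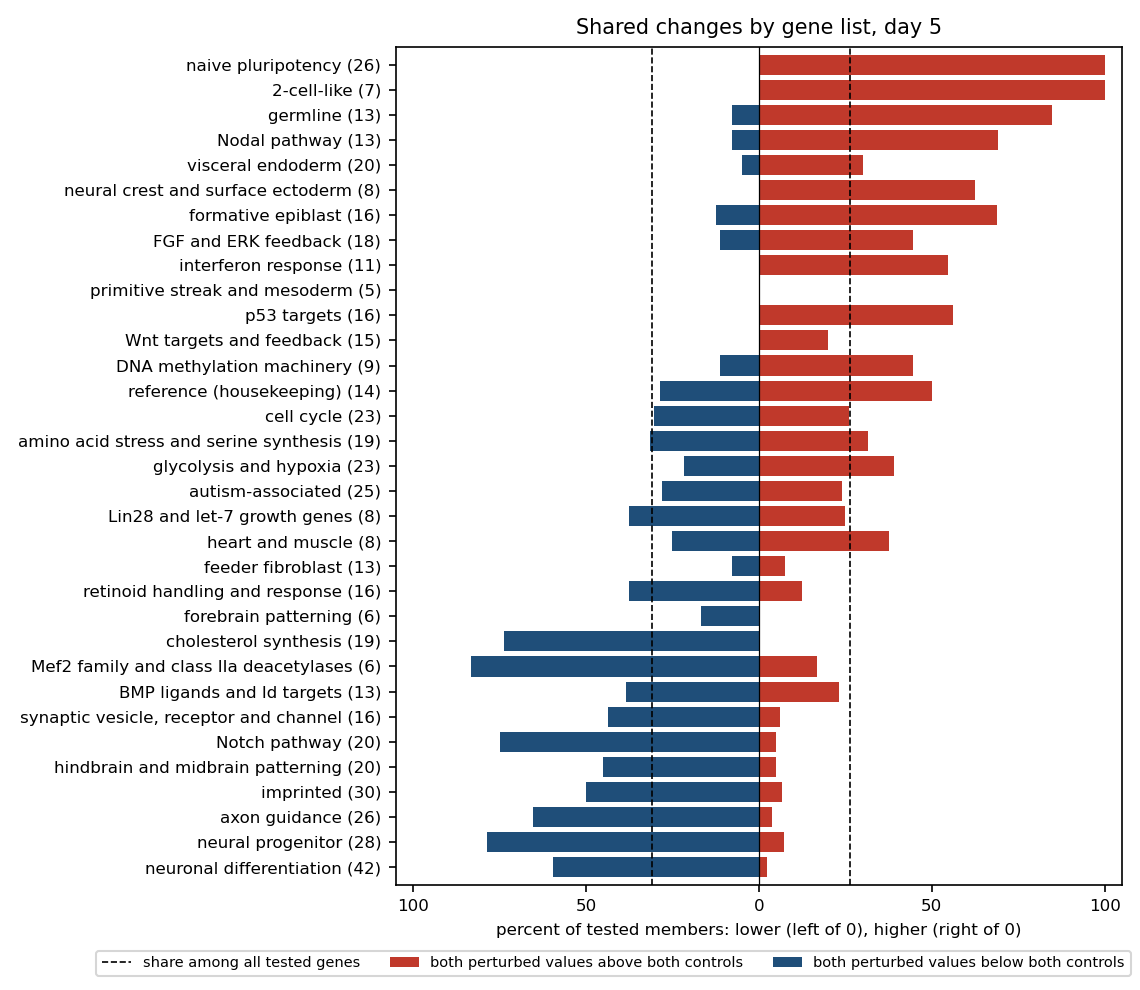
Percent of the compared genes of each list that were higher in both perturbed libraries or lower in both, with dashed lines at 26.3% and 30.9%, the percent over all compared genes. Naive pluripotency and 2-cell-like genes are wholly on the higher side, and neural progenitor, Notch, axon guidance and cholesterol genes lie far beyond the dashed line on the lower side. The 2-cell-like genes passed the filter on the mean through the perturbed libraries, so their bar is only a description.

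Neuronal differentiation genes were lower in both lines in 25 of 42 cases, 22 by 2-fold or more, and higher in 1 (median -1.29). Phox2a, a homeobox factor of hindbrain motor neurons, had 0.64 and 0.71 FPKM in KO and shMef2c, against 8.42 and 7.71 FPKM in WT and shCtrl (-2.44). Isl1, a LIM factor of motor neurons, had 1.36 and 0.69 FPKM in KO and shMef2c, compared with 7.35 and 13.6 FPKM in WT and shCtrl (-2.46). Neurod4, a proneural factor that was lowest in shMef2c, had 1.53 and 0.17 FPKM in KO and shMef2c, against 12.5 and 14.6 FPKM in WT and shCtrl (-3.07). Neurog2, a proneural factor of motor and sensory neurons, had 0.63 and 0.78 FPKM in KO and shMef2c, against 3.03 and 4.74 FPKM in WT and shCtrl. Nefl, the light neurofilament, had 19.3 FPKM in KO and 7.59 FPKM in shMef2c, against 46.8 FPKM in WT and 94.4 FPKM in shCtrl (-2.36). Several genes of differentiated neurons separated the lines instead. Tubb3, neuronal tubulin, had 148 and 44.5 FPKM in KO and shMef2c, against 109 and 148 FPKM in WT and shCtrl. Dcx, a microtubule-binding protein of migrating neurons, had 3.47 and 0.15 FPKM in KO and shMef2c, compared with 3.63 and 7.09 FPKM in WT and shCtrl (-1.43; -2.41 without KO and -0.45 without shMef2c). Nhlh1, a factor of newborn neurons, had 7.68 and 0.12 FPKM in KO and shMef2c, against 5.88 and 8.31 FPKM in WT and shCtrl. For Tubb3 and Nhlh1, KO lay within or at the edge of the range of the controls, and shMef2c lay below every other library. The higher gene was Nefh, the heavy neurofilament, with 4.05 and 2.46 FPKM in KO and shMef2c, against 1.2 and 0.73 FPKM in WT and shCtrl. The list depended on the line: its median was -0.39 for KO minus WT and -2.32 for shMef2c minus shCtrl, -1.96 without KO and -0.74 without shMef2c, and 37 of 42 genes were higher in KO than in shMef2c. Of 16 compared synaptic genes, 7 were lower and 1 higher (median -0.43, with -0.71 without KO and -0.22 without shCtrl), led by Nlgn2, a postsynaptic adhesion protein of inhibitory synapses, with 6.14 FPKM in KO and 7.23 FPKM in shMef2c, against 13.1 FPKM in WT and 19.03 FPKM in shCtrl. For the neuronal and the synaptic list, the shares over all compared genes were 30.9% lower and 26.3% higher.

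The Notch pathway, through which neighbouring progenitors hold each other back from differentiation, had 15 of 20 genes lower in both lines, 7 by 2-fold or more, and 1 higher (median -0.43, with -0.67 without shMef2c). All compared genes were lower in 30.9% of cases and higher in 26.3%. Among the ligands, Dll1 had 5.45 and 3.43 FPKM in KO and shMef2c, against 11.7 and 12.9 FPKM in WT and shCtrl (-1.31). Jag1 had 4.97 and 6.09 FPKM in KO and shMef2c, compared with 9.38 and 6.85 FPKM in WT and shCtrl (-0.47; -0.27 without WT). The receptor Notch1 had 4.99 and 6.5 FPKM in KO and shMef2c, against 9.42 and 8.52 FPKM in WT and shCtrl (-0.57). The enzymes that modify the receptor's sugars were lower and nearly equal in both lines: Lfng had 5.14 and 4.9 FPKM in KO and shMef2c, against 18.2 and 17.6 FPKM in WT and shCtrl (-1.65). Mfng had 6.22 FPKM in KO and 4.72 FPKM in shMef2c, against 16.3 FPKM in WT and 18.1 FPKM in shCtrl (-1.50). Of the targets, Hey1 had 4.07 and 5.65 FPKM in KO and shMef2c, against 14.3 and 15.8 FPKM in WT and shCtrl (-1.46). Nrarp, a feedback inhibitor, had 10.1 and 6.37 FPKM in KO and shMef2c, compared with 29.96 and 32.4 FPKM in WT and shCtrl (-1.83). Hes1, which ES cells also express, overlapped with 17.6 and 34.1 FPKM in KO and shMef2c, against 30.6 and 34.7 FPKM in WT and shCtrl. Rbpj, the DNA-binding cofactor whose word stands in the Hes5 promoter above, was the higher gene with 42.6 and 31.2 FPKM in KO and shMef2c, against 24.98 and 23.8 FPKM in WT and shCtrl (0.56; 0.34 without KO). Dll1, Lfng, Hey1 and Nrarp were thus lower in both lines, while the cofactor was higher.

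Hindbrain and midbrain patterning genes were lower in both lines in 9 of 20 cases, 8 of them by 2-fold or more, and higher in 1 (median -0.53, with -0.80 without shMef2c and -0.79 on TMM-scaled values). Over all compared genes 30.9% were lower, 2.8% by 2-fold or more, and 26.3% higher. The anterior Hox genes of the hindbrain stood furthest apart. Hoxb2 had 6.53 FPKM in KO and 13.6 FPKM in shMef2c, against 49.3 FPKM in WT and 35.6 FPKM in shCtrl (-2.03). Hoxb3 had 2.93 and 7.08 FPKM in KO and shMef2c, against 24.8 and 23.9 FPKM in WT and shCtrl (-2.17). Hoxa2 had 3.09 and 3.95 FPKM in KO and shMef2c, compared with 19.6 and 11.7 FPKM in WT and shCtrl (-1.85), with KO the lowest library each time. Meis1, a Hox cofactor, had 9.74 and 4.66 FPKM in KO and shMef2c, against 26.8 and 26.1 FPKM in WT and shCtrl (-1.81). Egr2 (Krox20), which sets up rhombomeres, had 0.29 and 0.19 FPKM in KO and shMef2c, against 2.55 and 1.03 FPKM in WT and shCtrl (-1.12; -0.71 without WT). Hoxb1 had 1.89 FPKM in KO and 10.6 FPKM in shMef2c, against 17.6 FPKM in WT and 12.3 FPKM in shCtrl, and was lower mainly in KO, with a difference of -0.45 without KO and -2.45 without shMef2c. Gbx2, which marks the anterior hindbrain and is also a pluripotency factor, was the gene higher in both lines with 19.8 and 12.1 FPKM in KO and shMef2c, against 10.7 and 8.18 FPKM in WT and shCtrl (0.67; 0.34 without KO). Of 16 forebrain genes only 6 passed the filter, 1 of them lower in both lines, and the perturbed lines differed, with medians of 1.21 for KO minus WT and -1.65 for shMef2c minus shCtrl. That list gave no stable value: its median of -0.27 was -1.44 without KO, 0.82 without shMef2c, -0.71 without WT, 0.07 without shCtrl and -0.60 on TMM-scaled values.

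Retinoid genes differed in direction. Of 16 compared, 6 were lower and 2 higher, all 8 by 2-fold or more, 8 overlapped, and the median of -0.24 was -0.44 without shMef2c, -0.91 without WT and 0.01 without shCtrl. Among all compared genes 30.9% were lower and 26.3% higher, and 2.8% and 3.24% by 2-fold or more. The binding proteins that carry retinoic acid in the cytoplasm were among the most abundant messages of the controls: Crabp1 had 364 and 156 FPKM in KO and shMef2c, compared with 1634 and 849.8 FPKM in WT and shCtrl (-2.30). Crabp2 had 115 and 64.96 FPKM in KO and shMef2c, against 464 and 333 FPKM in WT and shCtrl (-2.17). The degrading enzyme Cyp26b1 had 4.87 and 0.74 FPKM in KO and shMef2c, against 19.6 and 21.2 FPKM in WT and shCtrl (-2.74). The related enzyme Cyp26c1 had 1.04 FPKM in KO and 0.62 FPKM in shMef2c, against 8.08 FPKM in WT and 6.09 FPKM in shCtrl (-2.14), and both were thus lower in each perturbed line. Nr2f1 (COUP-TFI), an orphan receptor of anterior neural tissue, had 13.4 and 1.43 FPKM in KO and shMef2c, against 42.04 and 35.1 FPKM in WT and shCtrl (-2.74; -1.45 without shMef2c). On the higher side, the receptor Rarg had 26.1 and 31.1 FPKM in KO and shMef2c, compared with 12.2 and 10.3 FPKM in WT and shCtrl (1.27). Dhrs3, a reductase that turns retinaldehyde back to retinol, had 3.82 and 5.47 FPKM in KO and shMef2c, against 1.56 and 1.99 FPKM in WT and shCtrl. Cyp26a1 overlapped with 13.4 and 27.7 FPKM in KO and shMef2c, against 8.67 and 33.3 FPKM in WT and shCtrl. Rara, Rarb, Rdh10, Aldh1a2 and Stra6 overlapped as well.

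**Figure D3:**
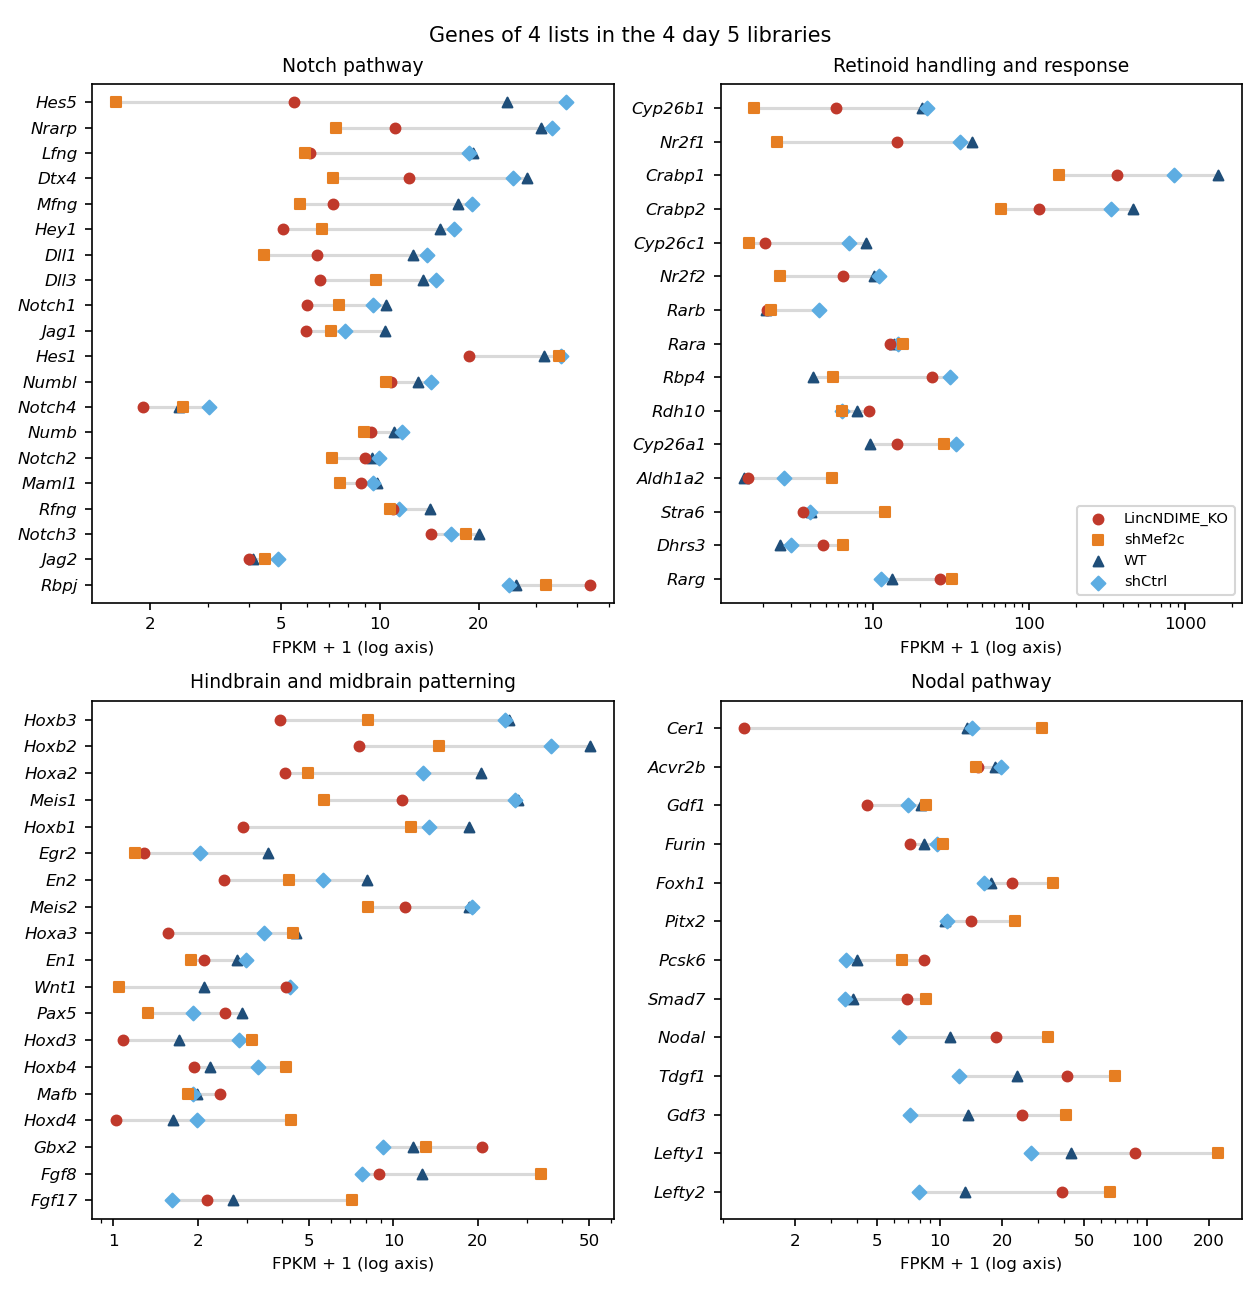
FPKM + 1 (log axis) in KO, shMef2c, WT and shCtrl for genes of the Notch, retinoid, hindbrain and midbrain, and Nodal lists. Nodal, Lefty1 and Lefty2 stand higher in both perturbed libraries, whereas Nrarp, Lfng, Cyp26b1, Crabp1 and Hoxb2 stand lower, and Hes1 and Cyp26a1 overlap.

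Axon guidance genes were lower in both lines in 17 of 26 cases, 7 by 2-fold or more, and higher in 1 (median -0.76). The shares over all compared genes were 30.9% lower and 26.3% higher. Slit1, a repellent for commissural axons, had 1.9 FPKM in KO and 1.94 FPKM in shMef2c, against 11.7 FPKM in WT and 11.5 FPKM in shCtrl, nearly equal within each side (-2.11). Efnb3, an ephrin of the ventral midline, had 11.6 and 7.06 FPKM in KO and shMef2c, against 28.6 and 23.8 FPKM in WT and shCtrl (-1.43). Ntn1, the floor plate attractant netrin, had 9.17 and 21.2 FPKM in KO and shMef2c, compared with 29.6 and 35.6 FPKM in WT and shCtrl, lower above all in KO (-1.15; -0.59 without KO). Genes associated with autism, the disorder named in the study's title, gave no common direction: 6 of 25 were higher and 7 lower, shares near those of all genes, none by 2-fold, with a median of -0.04 (0.02 with each library centred on its median). Adnp, a chromatin protein, was on the higher side with 10.4 and 8.79 FPKM in KO and shMef2c, against 7.55 and 7.8 FPKM in WT and shCtrl (0.28; 0.17 without KO), and Chd8 overlapped.

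Of the other Mef2 genes and the class IIa histone deacetylases, which bind and repress Mef2 proteins, 5 of 6 compared were lower in both lines and 1 was higher, none by 2-fold. The shares over all compared genes were 30.9% lower and 26.3% higher. Hdac7 had 4.55 and 3.25 FPKM in KO and shMef2c, against 8.47 and 7.51 FPKM in WT and shCtrl (-0.89). Mef2a had 5.24 FPKM in KO and 4.56 FPKM in shMef2c, against 5.57 FPKM in WT and 6.76 FPKM in shCtrl (-0.28; -0.16 without shCtrl). Hdac4 was marginally lower with 2.93 and 2.95 FPKM in KO and shMef2c, against 2.98 and 3.13 FPKM in WT and shCtrl (-0.04), and its difference was -0.07 without WT, -0.01 without shCtrl and 0.02 when each library was centred on its median. Mef2d was higher in both with 9.42 and 6.95 FPKM in KO and shMef2c, compared with 6.28 and 6.47 FPKM in WT and shCtrl (0.30; 0.11 without KO and 0.50 without shMef2c). The 4 differences were small beside those of the neural and naive lists.

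Genes of the 2-cell-like state, which rare ES cells enter and which resembles the cleavage embryo, were higher in both lines in all 7 of the 17 that passed the filter, 6 by 2-fold or more (median 1.60). Zscan4f had 21.4 and 8.8 FPKM in KO and shMef2c, against 1.5 and 1.05 FPKM in WT and shCtrl (2.71). Zscan4c had 13.4 and 7.07 FPKM in KO and shMef2c, against 1.36 and 0.53 FPKM in WT and shCtrl (2.50). KO was the highest library, with medians of 2.25 for KO minus WT and 1.30 for shMef2c minus shCtrl. The Zscan4 genes are near-identical copies, so the level of each is uncertain. The filter is on the mean, and genes this low in the controls passed it through the perturbed libraries, so the counts of this list and the next are only a description. Germline genes were higher in 11 of 13 cases and lower in 1, with 9 at 2-fold or more and a median of 1.27, which was 0.75 without KO and 1.92 without shMef2c. Beside Stra8, Ddx4 (Vasa), a germ cell RNA helicase, had 6.05 FPKM in KO and 3.37 FPKM in shMef2c, against 0.91 FPKM in WT and 1.08 FPKM in shCtrl. Dazl, a germ cell RNA-binding protein, had 6.16 and 2.59 FPKM in KO and shMef2c, against 1.14 and 0.55 FPKM in WT and shCtrl (1.48; 0.98 without KO). Mael, which silences transposons in the germline, was higher almost wholly in KO with 16.9 and 1.89 FPKM in KO and shMef2c, compared with 1.4 and 1.44 FPKM in WT and shCtrl (0.26 without KO and 2.89 without shMef2c). Tdrkh, a Tudor-domain protein of the piRNA pathway, was lower with 3.48 and 2.66 FPKM in KO and shMef2c, against 4.78 and 7.34 FPKM in WT and shCtrl (-0.78; -0.51 without shCtrl).

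Imprinted genes, of which 1 parental copy is silent, were lower in both lines in 15 of 30 cases and higher in 2, and all 5 at 2-fold or more were lower (median -0.61, with -0.28 without shCtrl). Over all compared genes 30.9% were lower and 26.3% higher. After Mest, Nnat (neuronatin) had 3.38 and 2.93 FPKM in KO and shMef2c, against 22.4 and 34.5 FPKM in WT and shCtrl (-2.80). Sgce, the epsilon-sarcoglycan, had 11.99 FPKM in KO and 9.68 FPKM in shMef2c, against 25.6 FPKM in WT and 39.9 FPKM in shCtrl (-1.49). Cdkn1c, a brake on the cell cycle, had 59.8 and 2.85 FPKM in KO and shMef2c, against 88.2 and 127 FPKM in WT and shCtrl, and was lower chiefly in shMef2c, with a difference of -4.79 without KO and -0.81 without shMef2c. Slc38a4, an amino acid transporter, was higher with 66.2 and 58.8 FPKM in KO and shMef2c, compared with 44.1 and 38.2 FPKM in WT and shCtrl. Igf2, a fetal growth factor, overlapped with 49.4 and 56.2 FPKM in KO and shMef2c, against 56.9 and 195 FPKM in WT and shCtrl.

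Among genes of growth and metabolism the differences were smaller. Over all compared genes 26.3% were higher and 30.9% lower in both lines. Cholesterol synthesis genes were lower in both lines in 14 of 19 cases, with 0 higher and 0 at 2-fold or more (median -0.28, with -0.43 without WT). Hmgcs1, whose promoter is printed above, had 85.5 and 97.2 FPKM in KO and shMef2c, against 118 and 174 FPKM in WT and shCtrl (-0.65; -0.37 without shCtrl). Msmo1, a later enzyme of the same route, had 55.9 FPKM in KO and 59.1 FPKM in shMef2c, against 82.1 FPKM in WT and 101 FPKM in shCtrl (-0.65). The shCtrl library held the highest level of both. Of 16 genes, p53 and its targets, 9 were higher and 0 lower, 0 by 2-fold (median 0.34, with 0.15 without shCtrl). Trp53 had 155 and 143 FPKM in KO and shMef2c, against 106 and 82.99 FPKM in WT and shCtrl (0.66). Among 23 cell cycle genes 6 were higher and 7 lower, shares near those of all genes. The strongest was the D-type cyclin Ccnd2 with 24.03 and 20.7 FPKM in KO and shMef2c, compared with 77.7 and 67.3 FPKM in WT and shCtrl (-1.66). The G1 cyclin Ccne1 went the other way with 90.5 and 77.6 FPKM in KO and shMef2c, against 62.8 and 45.03 FPKM in WT and shCtrl (0.65; 0.41 without shCtrl). Amino acid stress genes split into 6 higher and 6 lower of 19, and glycolysis and hypoxia genes into 9 higher and 5 lower of 23, with medians of 0.02 and 0.00 (0.08 and 0.05 with each library centred on its median). Within the glycolysis list Ldhb, a lactate dehydrogenase subunit, had 401 and 462 FPKM in KO and shMef2c, against 199.9 and 198 FPKM in WT and shCtrl (1.11). Vegfa, the vascular growth factor, had 3.86 FPKM in KO and 6.51 FPKM in shMef2c, against 12.6 FPKM in WT and 26.4 FPKM in shCtrl (-1.68). Of 14 housekeeping genes 7 were higher and 4 lower, none by 2-fold, with a median of 0.05, and Actb had 764 and 646 FPKM in KO and shMef2c, against 556 and 449 FPKM in WT and shCtrl.

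Signals from other cell types were uneven between the lines. Visceral endoderm genes were higher in 6 of 20 cases, near the share of all genes, and lower in 1, and the median of 0.92 was 0.02 without KO, 1.39 without shMef2c and 0.57 without WT. Their summed level was 570 and 517 FPKM in KO and shMef2c, against 200 and 328 FPKM in WT and shCtrl. Apoe and Rhox5, given below, together made up most of this sum in both perturbed lines. Afp, the fetal serum protein of this lineage, was on in KO alone with 23.3 and 0.13 FPKM in KO and shMef2c, compared with 0.3 and 0.36 FPKM in WT and shCtrl, as was Cubn, an endocytic receptor, with 19.9 and 0.09 FPKM in KO and shMef2c, against 1.18 and 0.56 FPKM in WT and shCtrl. Rhox5, a homeobox gene of extraembryonic tissue, was higher in both with 95.1 and 130.4 FPKM in KO and shMef2c, against 31.4 and 29.8 FPKM in WT and shCtrl (1.83). Apoe, a lipoprotein also made by many other cells, had 254 FPKM in KO and 283 FPKM in shMef2c, against 98.7 FPKM in WT and 152 FPKM in shCtrl. Of 5 compared primitive streak genes 0 met the rule: the median of -1.29 for KO minus WT stood against 1.88 for shMef2c minus shCtrl. Brachyury (T), the defining streak gene, had 0.35 and 106 FPKM in KO and shMef2c, against 40.5 and 36.5 FPKM in WT and shCtrl, and the list's sum was 6.84 and 159 FPKM in KO and shMef2c, against 54.9 and 51.3 FPKM in WT and shCtrl. Genes of the joint crest and surface ectoderm list were higher in 5 of 8 cases and lower in 0 (median 0.72), against 26.3% higher among all compared genes. The higher members were genes of ectoderm and epithelia, so the count does not describe neural crest. They were led by Tfap2c, a factor of trophoblast, germ cells and ectoderm, with 12.98 and 23.7 FPKM in KO and shMef2c, compared with 3.52 and 4.28 FPKM in WT and shCtrl (1.93). Feeder fibroblast genes summed to 99.4 and 113 FPKM in KO and shMef2c, against 124 and 99.5 FPKM in WT and shCtrl, and 1 of 13 was higher and 1 lower. The 3 compared embryonic erythroid genes were lower in both lines (median -1.97, with -3.29 without WT and -0.66 without shCtrl), but 7 of the 10 genes of the list did not pass the filter and these 3 globins stood highest in shCtrl, through which they mainly passed it, so the count is only a description. The sum of that list was 5.86 and 2.31 FPKM in KO and shMef2c, against 7.93 FPKM in WT and 50.5 FPKM in shCtrl, so shCtrl stood apart. The part of these cell types in the other differences was not tested.

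Of the signalling lists not yet given, Wnt targets had 3 of 15 genes higher and 0 lower (median 0.20, with 0.65 without KO, -0.31 without shMef2c and 0.37 without shCtrl), among them Notum, a secreted Wnt inactivator, with 9 and 9.41 FPKM in KO and shMef2c, against 3.43 and 1.89 FPKM in WT and shCtrl (1.51). BMP ligands and Id targets had 3 of 13 higher and 5 lower, and the median of -0.38 was -0.02 without KO, -0.68 without shMef2c, -0.70 without WT and -0.07 without shCtrl. Id1, a BMP-induced inhibitor of bHLH factors, had 18.1 and 22.3 FPKM in KO and shMef2c, against 36.9 and 49.4 FPKM in WT and shCtrl (-1.05). Id2 had 31.8 FPKM in KO and 19.1 FPKM in shMef2c, against 49.8 FPKM in WT and 61.7 FPKM in shCtrl (-1.14). Both Id genes were thus lower in each perturbed line. Interferon response genes were higher in 6 of 11 cases and lower in 0 (median 0.44, with 0.22 without shMef2c), with Ifitm3, a membrane restriction factor, at 129 and 134 FPKM in KO and shMef2c, against 72.99 and 67.5 FPKM in WT and shCtrl. DNA methylation genes were higher in 4 of 9 cases and lower in 1 (median 0.18, with 0.29 without WT and 0.08 without shCtrl), with Tet1, which oxidises methylcytosine, at 12.3 and 8.72 FPKM in KO and shMef2c, compared with 4.68 and 3.34 FPKM in WT and shCtrl (1.19). Lin28 and let-7 growth genes had 2 of 8 higher and 3 lower, and heart and muscle genes 3 of 8 higher and 2 lower. For each of these lists the shares over all compared genes were 26.3% higher and 30.9% lower.

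Genes that RefSeq lists as long noncoding RNA followed both directions. Of 202 compared, 44 were higher and 76 lower in both lines, 11 and 13 by 2-fold or more. Over all compared genes the shares were 26.3% and 30.9%, and 3.24% and 2.8% at 2-fold or more. Miat, a nuclear transcript of neural tissue, had 6.67 and 1.82 FPKM in KO and shMef2c, against 21.1 and 24.99 FPKM in WT and shCtrl (-2.36). Sox2ot, the transcript that spans Sox2, had 2.06 and 1.02 FPKM in KO and shMef2c, against 7.17 and 7.62 FPKM in WT and shCtrl (-1.76). The sources used here give no use of strand in counting, so reads of Sox2ot and of Sox2 within it cannot be told apart. The host gene of the neuronal microRNA miR-124, Mir124a-1hg, had 0.86 FPKM in KO and 0.35 FPKM in shMef2c, against 2.94 FPKM in WT and 5.97 FPKM in shCtrl (-1.73), lower in both lines. On the other side, Lncenc1, an ES cell transcript of the naive state, had 12.9 and 9.85 FPKM in KO and shMef2c, against 3.73 and 3.03 FPKM in WT and shCtrl (1.49). Of the Platr genes, pluripotency-associated transcripts, 7 of 8 compared were higher (median 0.98), among them Platr17 with 9.47 and 16.4 FPKM in KO and shMef2c, compared with 4.77 and 2.19 FPKM in WT and shCtrl.

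The 2 perturbed lines did not share their differences equally. KO was the higher library for 237 of the 420 higher genes, and shMef2c the lower library for 251 of the 363 lower genes. They lay within 1.5-fold of each other in 269 of the 420 and 195 of the 363. Among higher genes, KO was 2-fold or more above shMef2c in 54 and the reverse held in 7, and among lower genes shMef2c was 2-fold or more below KO in 69 and the reverse held in 16. Over all 12975 genes, 662 differed 2-fold or more between KO and shMef2c, against 123 between WT and shCtrl. The largest differences in mean level that failed the rule on the higher side were those of Afp, Srgn, Cubn, Gkn2 and Lgals2, all high in KO alone; Srgn, a proteoglycan of secretory granules, had 37.4 and 0.89 FPKM in KO and shMef2c, against 1.92 and 2.09 FPKM in WT and shCtrl. On the lower side they were those of Nefm, T, Nlrp4e, Nhlh1 and Cer1, of which Nefm, the medium neurofilament, had 16.5 and 1.27 FPKM in KO and shMef2c, against 15.5 and 25.6 FPKM in WT and shCtrl.

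**Figure D4:**
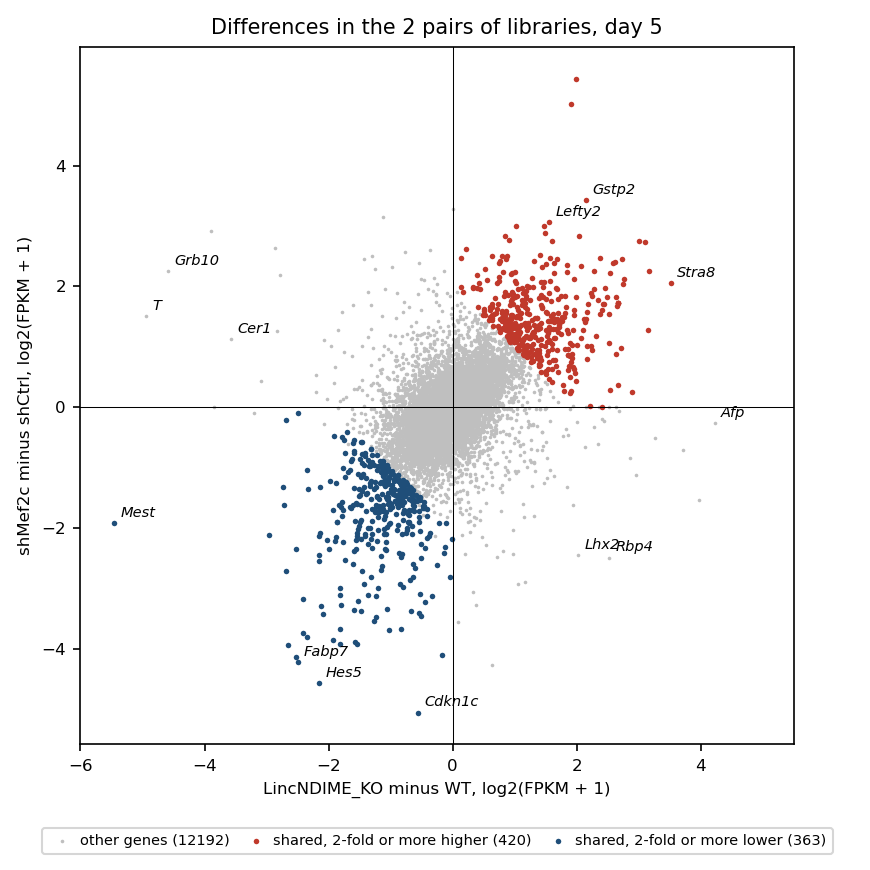
Log2(FPKM + 1) difference of KO minus WT (x axis) against shMef2c minus shCtrl (y axis) for 12975 genes, with the 420 shared higher genes of 2-fold or more in red, the 363 lower ones in blue and the other 12192 in grey. The red and blue genes lie in opposite corners, and Lhx2, Rbp4 and Grb10 lie where the 2 differences have opposite signs.

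Day 0 values come from a table that was normalised on its own, as RPKM (reads per kilobase of gene, scaled to library size), and were compared within that table only. Of 12065 genes compared there, 2492 (20.7%) were higher in KO and shMef2c than in both controls and 1604 (13.3%) were lower, and 2-fold differences without overlap numbered 45 (0.373%) and 22 (0.182%). Of the 420 genes higher at day 5, 311 were compared at day 0, and 71 of them (22.8%) were higher there and 34 (10.9%) lower. Of the 363 lower at day 5, 162 were compared at day 0, and 25 (15.4%) were higher and 21 lower. These shares lie near those of all day 0 genes. Without the day 0 shMef2c library, which went against its label, the higher genes of day 5 were higher in 44.7% and lower in 30.2%, and the lower genes of day 5 were higher in 22.2% and lower in 55.6%, against 39.9% and 32.9% of all genes, where no overlap is easier to meet with 3 libraries. The higher genes of day 5 had a median of 15.7 and 14.7 RPKM in KO and shMef2c, against 14.2 and 14.5 RPKM in WT and shCtrl at day 0. At day 5 their medians were 10.5 and 8.70 FPKM in KO and shMef2c, against 3.10 and 2.61 FPKM in WT and shCtrl.

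Naive pluripotency genes had no common direction in the ES cells: 7 of 26 were higher, 5 lower, and the median was 0.08. Neural progenitor genes likewise had 4 of 15 higher and 1 lower, with a median of 0.04. Some lists had a direction at day 0. The 2-cell-like genes had 6 of 7 higher and 0 lower, with a median of 1.51. The day 0 filter is also on the mean, and Zscan4c, Zscan4d and Zscan4f were highest in KO, so this count is only a description. The cholesterol genes had 14 of 18 lower, 1 higher and a median of -0.29. The imprinted genes had 11 of 25 lower, 1 higher and a median of -0.27. Hmgcs1 had 53.7 and 59.6 RPKM in KO and shMef2c, against 72.0 and 75.1 RPKM in WT and shCtrl at day 0. Germline genes were higher in 6 of 17 cases and lower in 1. At both days 19 genes were 2-fold higher and 1 was 2-fold lower, which was Mest. Among the higher ones were Zscan4c, Zscan4d, Zscan4f, Stag3, a meiotic cohesin subunit, and Sdc4, a heparan sulfate proteoglycan. The limit was on the difference of means, not on each line against its own control. At day 0 Zscan4c had 11.9 and 3.25 RPKM in KO and shMef2c, against 0.78 and 2.82 RPKM in WT and shCtrl. Sdc4 there had 30.7 and 34.6 RPKM in KO and shMef2c, against 10.4 and 23.5 RPKM in WT and shCtrl. Sdc4 had 23.8 FPKM in KO and 22.3 FPKM in shMef2c, against 6.63 FPKM in WT and 6.94 FPKM in shCtrl at day 5. Mest at day 0 had 1.9 and 20.6 RPKM in KO and shMef2c, against 26.6 and 36.0 RPKM in WT and shCtrl. Trp53 lay on the other side in the ES cells: at day 0 it had 268.7 and 269.5 RPKM in KO and shMef2c, against 380.1 and 308.7 RPKM in WT and shCtrl.

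**Figure D5:**
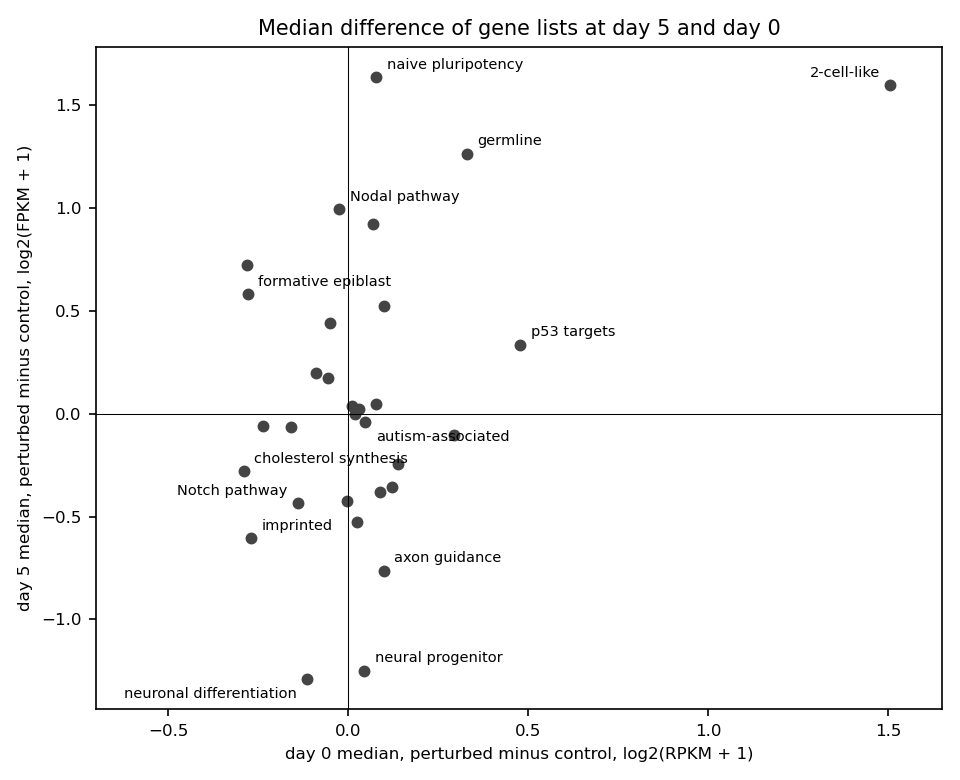
Median log2 difference of each gene list, KO and shMef2c minus WT and shCtrl, at day 5 (FPKM) and at day 0 (RPKM), each within its own table. Naive pluripotency has medians of 0.08 at day 0 and 1.64 at day 5, neural progenitor 0.04 and -1.25, and 2-cell-like genes 1.51 and 1.60.

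Location and gene model also moved with the differences. Genes of chromosomes 14 and 17 had medians of -0.20 and -0.13, and the KO pair held most of this, with -0.29 and -0.30 for KO minus WT, against -0.08 and 0.01 for shMef2c minus shCtrl. The X chromosome also had a median of -0.13, with -0.09 in each pair, and the largest share of lower genes of the chromosomes at 38.7%. The 2-fold higher genes had a median length of 1913 bases, against 2841 for the lower ones and 2802 for all compared. Features that the authors predicted made up 762 of the compared genes, and 71 of the 420 higher and 22 of the 363 lower genes. The authors' deposited tables of each perturbed line against its control, which list genes past their own limits, name 2253 genes for KO and 2758 for shMef2c. Of the 1110 genes that the authors' deposited tables hold in common, 509 are higher in both lines, 452 lower in both and 149 opposite. These tables hold 318 of the 420 and 242 of the 363.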

How the data were processed

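Total RNA was extracted and oligo(dT)-selected messenger RNA sequenced, with 1 library per line and day. The day 5 values are FPKM and estimated counts, and the day 0 values RPKM and estimated counts, each deposited by the authors and computed by them per the file headers. RSEM, Bowtie, Bowtie2, HISAT and HISAT2 and the mouse build mm9 are listed in the submitters' processing notes without roles or versions, and strand use in counting is not stated. Log2 ratios of the authors' deposited tables served only to count their genes, and those tables list genes past limits on the log2 ratio and false discovery rate.

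Day 5 files were matched on gene ID, absent genes were set to 0, and genes with a mean of 1 FPKM or more were compared as log2(FPKM + 1) with pandas 2.3.3 and numpy 2.4.6 in Python 3.11.15. The day 0 table used the same rule on RPKM. Depth was 25996204 to 26834802 estimated reads at day 5 and was lower at day 0. Alternatives were pseudocount 0.1, filters of none and 5, folds of 1.5 and 4, scaling to a common total, TMM (edgeR 4.0.16) and DESeq2 1.42.0 size factors in R 4.3.3 on rounded estimated counts, and leaving out each library. Genes were named by rank: the 20 largest named differences each way, up to 6 members of each of 34 lists, and the 5 largest that overlapped each way or had opposite signs. Further list members, the noncoding RNAs and Sdc4 were chosen after their values were seen, and some genes that this rule selects are not reported here. Members and lists were chosen with earlier results of these data known. RefSeq GRCm38.p6 gave names and promoters, and 19547 features matched it.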

Additional observations from a re-analysis of the deposited data

Results flagged for a closer look

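A few genes differed in opposite directions in the 2 perturbed lines, each line set against its own control at day 5, and the difference between the lines was not tested. Grb10, an imprinted inhibitor of growth factor receptors, had 3.06 and 121.7 FPKM in KO and shMef2c, against 96.8 and 24.7 FPKM in WT and shCtrl, a log2(FPKM + 1) difference of -4.59 for KO minus WT and 2.25 for shMef2c minus shCtrl. Lhx2, a LIM factor of forebrain and eye progenitors, had 16.8 and 0.31 FPKM in KO and shMef2c, against 3.38 and 6.12 FPKM in WT and shCtrl, and its differences were 2.02 and -2.44. Rbp4, the plasma carrier of retinol, had 22.9 and 4.55 FPKM in KO and shMef2c, against 3.16 and 30.2 FPKM in WT and shCtrl, with 2.52 and -2.49. For Grb10 and Rbp4 the controls themselves stood apart. The defensin-related genes Defa-rs2 and Defa-rs4 had the signs of Grb10, with -3.89 and 2.92 for Defa-rs2 and -2.86 and 2.63 for Defa-rs4. Defa-rs2 had 0.09 and 107.7 FPKM in KO and shMef2c, against 15.1 and 13.4 FPKM in WT and shCtrl, and the closely similar copies of this family make the level of each uncertain.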

How the results depend on the processing

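No paired analysis was possible with 1 library per line, because KO and shMef2c carry different perturbations and are not replicates. Each line against its own control is given in the report as a description. Counts below are 2-fold higher, 2-fold lower, separated higher and separated lower genes, 420, 363, 174 and 142 as reported. They were 635, 612, 318 and 234 with a pseudocount of 0.1, 999, 1197, 514 and 477 at 1.5-fold, and 45, 50, 5 and 13 at 4-fold; with a mean of 5 FPKM or more the first 3 were 214, 219 and 112. Leaving out each library in turn gave 4348 to 5213 shared higher and 4857 to 5898 shared lower genes, 365 to 517 and 310 to 516 at 2-fold, and 201 to 398 and 171 to 385 separated. Of the 420 and 363 genes, 395 and 351 were kept under TMM and 394 and 351 under DESeq2 scaling. Chosen after seeing the data were the sets without chromosomes 14 and 17, which kept 389 and 320, without predicted features, which kept 349 and 341, and centring each library on its median, which kept 420 and 305 and made 54.6% of the shared genes higher, against 46.0% as reported. Centring also turned the difference of Hdac4 to 0.0158. The cause was not tested. Among genes that overlapped, these took the opposite sign when a library was left out: Afp (-0.23), Srgn (-0.67), Cubn (-0.76), Gkn2 (-0.04), Lgals2 (-0.05), T (1.44), Nlrp4e (0.35), Cer1 (1.17), Grb10 (1.29), Hes1 (0.06) and Otx2 (-0.05) without KO, and Nhlh1 (0.12), Tubb3 (0.22), Lhx2 (1.67) and Cyp26a1 (-0.34) without shMef2c. Defa-rs2 and Defa-rs4 stood at 0.04 and 0.38 on TMM-scaled values and at 2.83 and 2.32 without KO, against -0.49 and -0.12 on FPKM. Rbp4 stood at -1.04 without KO and -1.44 without WT, against 0.02. Without WT the sign also turned for Cyp26a1 (-0.76), Otx2 (-0.20) and Defa-rs4 (0.19), and without shCtrl for Lhx2 (0.14). Over the other alternatives of the 249 named genes 2552 values held and 129 moved, and of the 34 list medians 304 held and 70 moved. At this depth 19 of the 783 genes had under 100 estimated reads, so their values are the least certain.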

Other observations

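Apart from Hprt, the genes named here lie outside the lists and were picked from those with 2-fold differences after their values were seen. They stand for themselves and for no group. Ooep and Tle6, which encode parts of the subcortical maternal complex of the oocyte, were higher in both perturbed lines. Ooep had 36.3 and 32.2 FPKM in KO and shMef2c, against 11.0 and 5.34 FPKM in WT and shCtrl, and Tle6 had 7.14 and 8.68 FPKM in KO and shMef2c, against 2.09 and 1.77 FPKM in WT and shCtrl. Rec114, a meiotic recombination factor, had 19.7 and 6.25 FPKM in KO and shMef2c, against 2.60 and 2.47 FPKM in WT and shCtrl (1.79; 1.04 without KO). Dmrt1, a regulator of germ cells and testis, had 24.5 and 14.7 FPKM in KO and shMef2c, against 5.59 and 4.41 FPKM in WT and shCtrl. Alpl, the alkaline phosphatase long used to stain ES cells, had 48.0 and 59.7 FPKM in KO and shMef2c, against 20.5 and 15.0 FPKM in WT and shCtrl.

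Others were lower in both lines. Nkx2-2, a factor of the progenitors next to the floor plate, had 1.77 and 1.26 FPKM in KO and shMef2c, against 8.24 and 12.1 FPKM in WT and shCtrl (-2.13). Shh, the floor plate signal, had 3.18 and 13.4 FPKM in KO and shMef2c, against 20.3 and 28.5 FPKM in WT and shCtrl, and KO was the lowest library (-1.69; -0.80 without KO and -2.58 without shMef2c). Sfrp1, a secreted Wnt antagonist of neuroepithelium, had 30.9 and 16.9 FPKM in KO and shMef2c, against 81.1 and 70.4 FPKM in WT and shCtrl. Fzd3, a Wnt receptor of axon tracts, had 3.44 and 2.91 FPKM in KO and shMef2c, against 15.5 and 17.1 FPKM in WT and shCtrl. Hprt, a purine salvage enzyme used in most cells, was not lower: its values overlapped, and it did not pass the filter. It stayed under 1 FPKM in all 4 libraries, with 0.92 and 0.77 FPKM in KO and shMef2c, against 0.82 and 0.69 FPKM in WT and shCtrl.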
